A study of Mus musculus with 9 samples.

Results

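The 8 genes described here encode the subunits of condensin I and condensin II, chosen by name: Smc2, Smc4, Ncaph, Ncapg, Ncapd2, Ncaph2, Ncapg2 and Ncapd3. They are 8 of the 46078 gene identifiers counted in 9 RNA-seq libraries. All libraries came from EGFP-SSCs, a mouse spermatogonial stem cell line of WT genotype that carries a green fluorescent protein and is kept on mitomycin C-treated embryonic fibroblasts in StemPro-34 medium. The 0 h group was in this normal culture. The 24 h and 48 h groups had been mixed with testicular somatic cells from busulfan-treated newborn mice and grown in α-MEM with KSR, BMP-4/7, retinoic acid, activin A, testosterone, FSH and BPE, after which EGFP-positive cells were collected by flow cytometry. The labels name this sort for 24 h and 48 h, and whether the 0 h cells were separated from their fibroblast feeders in the same way is not given in them. Each group had 3 libraries labelled as biological replicates of this 1 line, so p-values measure the spread between these samples of 1 line.

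Condensins are ring-shaped ATPases that fold chromatin into loops and give mitotic and meiotic chromosomes their compact, rod-like form. Both complexes share the SMC2 and SMC4 arms. A kleisin closes the ring (NCAPH in condensin I, NCAPH2 in condensin II) and binds a pair of HEAT-repeat subunits, NCAPG and NCAPD2 in condensin I or NCAPG2 and NCAPD3 in condensin II. Condensin II is nuclear through interphase, whereas condensin I reaches the chromosomes mainly after the nuclear envelope opens. Spermatogonia divide by mitosis before they enter meiosis, and both kinds of division need condensin.

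The libraries held 16825251 to 22201892 counts each. Germ cell markers were present in every group, with all 7 of 7 at 1 CPM or more (CPM, a count scaled to the size of its library) and a summed level of 2010 to 2910 CPM at 0 h, 2830 to 2950 at 24 h and 2670 to 2810 at 48 h. The 6 fibroblast markers summed to 260 to 352 CPM at 0 h, 2140 to 2420 at 24 h and 2770 to 3040 at 48 h, with all 6 at 1 CPM or more in each group. The 6 myoid markers summed to 13.7 to 15.8, 149 to 207 and 267 to 317 CPM. The 10 Sertoli markers summed to 24.5 to 25.8, 77.2 to 129 and 117 to 128 CPM, and the 6 Leydig markers to 4.53 to 6.77, 25.2 to 38.5 and 25.6 to 31.9 CPM. Fshr of the Sertoli list and Hsd3b1 and Insl3 of the Leydig list were at 0 in the 0 h libraries, and Lhcgr was at 0 in the 24 h libraries. The 4 endothelial markers summed to 43.2 to 47.8, 14.4 to 18.7 and 12.3 to 12.7 CPM, and the 4 macrophage markers to 15.7 to 17, 5.71 to 9.51 and 5.38 to 7.41 CPM. Not every marker moved with its sum. At 24 h against 0 h, 7 Sertoli markers were called higher and 2 lower, Sox9 (log2 fold change -0.80) and Rhox5 (-2.57). Rhox5 was also lower at 48 h than at 0 h (-3.49). Of the endothelial markers 2 were called lower and Tek higher, at 24 h (1.31) and 48 h (1.53) against 0 h. Of the macrophage markers Cd68 was called lower and Csf1r higher at 24 h (1.90). The myoid and fibroblast sums also rose from 24 h to 48 h without overlap, with 5 of 6 markers of each list called higher. The remaining myoid marker, Des, was not called. The remaining fibroblast marker, Pdgfra, was called lower (log2 fold change -0.31, adjusted p = 0.0268, edgeR's quasi-likelihood test). The part of these sums in the condensin values was not tested.

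The DNA just upstream of the condensin genes is shown for the members whose transcripts differed most clearly in their course, the kleisins Ncaph and Ncaph2, and for Ncapg and Smc2, which varied widely between replicates. Each run reads 5′ to 3′ on the strand of the gene and ends at the base before the RefSeq start (GRCm38.p6). Capitals mark matches to CCAAT, to TTTGAA or to TTCGAA on either strand. CCAAT is the box bound by NF-Y, and TTTGAA and TTCGAA are forms of the cell cycle genes homology region found near many genes of late G2 and mitosis.
Ncaph, chr2:127133955-127134054, minus strand: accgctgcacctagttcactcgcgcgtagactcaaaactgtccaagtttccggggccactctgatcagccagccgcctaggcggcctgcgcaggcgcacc
Ncaph2, chr15:89355619-89355718, plus strand: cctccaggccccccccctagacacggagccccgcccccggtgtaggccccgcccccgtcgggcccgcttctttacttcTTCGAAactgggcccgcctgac
Ncapg, chr5:45669825-45669924, plus strand: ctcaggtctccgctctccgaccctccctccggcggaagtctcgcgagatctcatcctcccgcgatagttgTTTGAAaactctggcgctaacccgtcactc
Smc2, chr4:52439061-52439220, plus strand: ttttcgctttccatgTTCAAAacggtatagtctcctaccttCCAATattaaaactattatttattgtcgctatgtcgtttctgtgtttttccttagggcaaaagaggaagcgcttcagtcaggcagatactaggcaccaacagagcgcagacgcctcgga

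The RefSeq promoter table covered 7 of the 8 genes with 8 windows, 2 of them for Ncapd3, each running from 250 bases before to 50 after a start. TTTGAA was found on either strand in the windows of Ncapd2, Ncapd3 (1 of its 2), Ncapg, Ncapg2 and Smc2, against 17.9% of 32851 promoter windows of all genes. It lay 30 bases before the Ncapg start and 18 before the Ncapg2 start. The palindrome TTCGAA, held by 1.56% of all windows, lay 22 bases before the Ncaph2 start and in no other condensin window. CCAAT was found for Ncapd2, Ncapg and Smc2, against 37.4% of all windows, with 3 copies in the Ncapd2 window. The E2F-type letters TTCCCGC occurred in the windows of Ncapg and Ncapg2 (4.6% of all windows) and TTCGCGC in no condensin window (1.59% of all windows). Within the 250 bases before the start, TTCCCGC was found for Ncapg2 alone, 249 bases before it. Among the 7 genes, Ncaph was the only one whose windows held no match to any of the 5 motifs. The only Ncapd3 match lay in the window of a start inside the gene (chr9:27060166-27060465). The Ncapd3 window at the start of the gene held none. No site of 1 motif overlapped a site of another in these windows, and a match of letters describes the sequence only.

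In the annotation of the same build (GRCm38, GENCODE M21), 7 of the 8 condensin genes had another gene that starts within 1000 bases on the other strand, the exception being Ncaph. The same held for 18.4% of 22028 protein coding genes and 28.2% of 9849 that averaged at least 10 CPM. The nearest were Lmf2, 60 bases from Ncaph2, Mrpl51, 100 bases from Ncapd2, and Vps26b, 110 bases from Ncapd3. Ift80, a ciliary transport gene 168 bases from Smc4, rose from 24 h to 48 h by 0.34 on the log2 scale (adjusted p = 0.00636, edgeR's quasi-likelihood test), and none of the other neighbours that were tested passed the threshold in any comparison. Ncaph2 also shares 829 exonic bases with Sco2 and 535 with Tymp on the opposite strand at its 3′ end. Sco2 was listed at 0 in every library and Tymp reached at most 1.54 CPM. Ncapg shares 944 exonic bases with Lcorl on the opposite strand. Since the strand setting of the counting is not given in the sources used here, reads in these overlaps cannot be assigned to 1 gene with certainty. On its own strand Ncapd2 shares 237 exonic bases with Scarna10 and 235 with Gm28967, where no strand setting could separate the reads. Scarna10 and Gm28967 were listed at 0 in every library.

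All 8 subunits were transcribed in every library, and their levels are compared between genes per length, as fragments per kilobase of exon, scaled as CPM (FPKM, from the counts). Ncapd2 had the highest FPKM at each time, 58.1 ± 3.00 before co-culture, then 56.1 ± 2.65 and 58.2 ± 1.48 (SD over 3 libraries), and its libraries stood above those of every other subunit. Ncaph2 was second with 41.7 ± 6.25, 39.2 ± 1.90 and 31.1 ± 2.80 FPKM. With the length of all exons, the lowest means belonged to Ncapg (12.9, 11.8 and 14.0 FPKM) and Ncapg2 (9.99, 10.6 and 12.1 FPKM), whose libraries overlapped at each time.

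The order between these ends depended on the time. At 0 h Ncaph came next after Ncaph2 with 32.2 ± 0.993 FPKM, followed by Ncapd3 (26.1), Smc4 (25.1) and Smc2 (18.0), and from Ncaph downward each neighbour in the order overlapped the next. At 24 h Ncapd3 (24.2 ± 0.764 FPKM) stood above Ncaph (20.4 ± 0.131) with no overlap, while Ncaph, Smc4 (18.9), Smc2 (18.4), Ncapg and Ncapg2 overlapped in turn. At 48 h Ncaph2, Smc2 (26.3), Smc4 (24.8), Ncaph (23.7 ± 1.31) and Ncapd3 (23.2 ± 0.829) formed a series of overlapping neighbours, and Ncapd3 stood above Ncapg without overlap. With the length of the longest transcript in place of all exons, 18 of the 24 mean FPKM values moved by more than 1 SD. The lowest mean then belonged to Smc2 at 0 h (18.28 FPKM) and 24 h (18.65 FPKM), and to Ncapg at 48 h (24.95 FPKM). The order therefore rests on the gene models used.

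**Figure D1:**
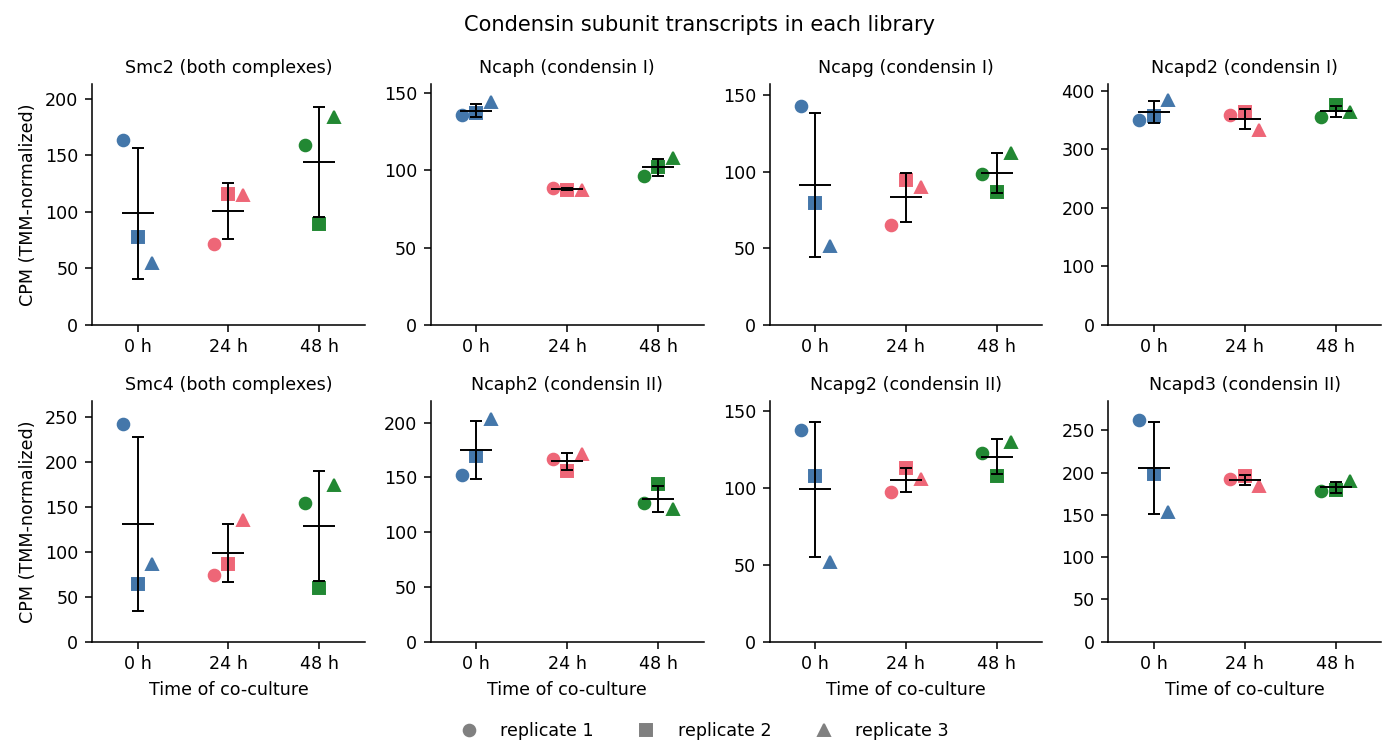
Transcript levels of the 8 condensin subunits in CPM after TMM scaling (vertical axes, from 0) at 0, 24 and 48 h of co-culture (horizontal axes). Each symbol is 1 library and the bars give mean and SD of 3: Ncaph drops from 136 to 144 CPM at 0 h to 87.3 to 88.4 at 24 h, Ncaph2 is lowest at 48 h, and Smc2 and Smc4 scatter widely within groups.

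The comparison of 24 h with 0 h asks what differed after the first day with the somatic cells and the differentiation medium. Ncaph, the condensin I kleisin, was the 1 subunit of 8 that passed the test, and it fell. Its levels were 136, 137 and 144 CPM at 0 h and 88.4, 87.3 and 87.5 CPM at 24 h. Every 24 h library was well below every 0 h library, and the 24 h libraries were nearly identical. The log2 fold change was -0.66 (SE 0.091, 95% interval -0.874 to -0.448, adjusted p = 0.00188 by the Benjamini-Hochberg method over all genes, edgeR's quasi-likelihood test), or 1.58-fold lower. Across all 17592 genes tested, 25.5% passed the same threshold, 11.4% as higher and 14.2% as lower, and in 43.1% the libraries of both groups did not overlap. In whole-cell RNA of this kind, fewer cells with a transcript and less of it per cell cannot be told apart.

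The other condensin I subunits did not pass at 24 h. Ncapd2, the HEAT-repeat partner of NCAPH, was at 350, 357 and 385 CPM at 0 h and 359, 364 and 333 CPM at 24 h, and the groups overlapped. The interval of its log2 difference was narrow, -0.275 to 0.176. Ncapg was at 143, 79.6 and 51.5 CPM at 0 h and 65.1, 94.6 and 89.7 CPM at 24 h. The highest and the lowest Ncapg libraries were both 0 h libraries, and the interval ran from -0.983 to 0.695.

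Of the condensin II subunits none passed at 24 h in edgeR or in DESeq2, and none had an unadjusted p under 0.05. Its kleisin Ncaph2 was at 152, 170 and 203 CPM at 0 h and 167, 156 and 171 CPM at 24 h, so the groups overlapped (log2 fold change -0.09, interval -0.373 to 0.20). Ncapd3 was at 263, 199 and 154 CPM against 193, 196 and 184 CPM, and Ncapg2 at 138, 108 and 51.8 CPM against 97.5, 113 and 106 CPM. In both genes the 24 h libraries lay inside the 0 h range. The shared arm Smc2 was at 164, 77.7 and 54.5 CPM at 0 h and 71.8, 116 and 115 CPM at 24 h, and here too the later libraries lay inside the 0 h range. Smc4 was at 242, 64.2 and 86.3 CPM at 0 h and 74.5, 86.0 and 135 CPM at 24 h, and its interval, -1.587 to 0.740, was the widest of the 8. The median log2 fold change of the 8 was -0.0983, beside 0.00516 over all genes. Scaling by library totals alone moved that median of all genes to 0.118 at 24 h and 0.127 at 48 h, and the Ncaph difference kept its direction and passed under it.

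The comparison of 48 h with 0 h asks what differed after 2 days. Both kleisins passed, Ncaph and Ncaph2, 2 of the 8 subunits, each lower at 48 h, where 31.6% of 17755 genes passed in either direction, 13% higher and 18.5% lower, and 47.7% had libraries that did not overlap. Ncaph was at 96.6, 102 and 108 CPM at 48 h, below all its 0 h libraries. Its log2 fold change was -0.44 (SE 0.095, interval -0.661 to -0.217, adjusted p = 0.0113, edgeR's quasi-likelihood test), or 1.36-fold lower. Ncaph2 was at 127, 144 and 121 CPM at 48 h, against 152, 170 and 203 CPM at 0 h. The lowest 0 h library was close above the highest 48 h library. Its log2 fold change was -0.42 (SE 0.130, interval -0.724 to -0.114, adjusted p = 0.0453, edgeR's quasi-likelihood test), or 1.34-fold lower. The Ncaph2 call held in 2 of 9 alternative settings. Among others, it was lost with DESeq2 (adjusted p = 0.054) and with GC content and length corrected by offsets (log2 fold change -0.16, adjusted p = 0.122, edgeR). DESeq2 size factors in edgeR, library totals alone and no expression filter also lost it. On leaving out libraries in turn it was lost without any of 5 of the 6 (-0.28 to -0.49, adjusted p from 0.0781 to 0.175, edgeR). There it held only without 0 h replicate 1 (-0.50, adjusted p = 0.0162, edgeR). The Ncaph call was lost without 48 h replicate 1 (log2 fold change -0.40, adjusted p = 0.076 with edgeR) or 48 h replicate 2 (-0.43, adjusted p = 0.0586 with edgeR).

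The remaining 6 subunits did not pass at 48 h. Ncapd2 was at 356, 375 and 364 CPM, inside its 0 h range, with an interval of -0.204 to 0.219 on the log2 scale. Ncapd3 was at 178, 180 and 190 CPM, also inside its 0 h range. Ncapg (98.5, 86.6 and 112 CPM) and Ncapg2 (123, 108 and 130 CPM) both lay between their highest and lowest 0 h libraries. The structural arm genes were the least even: Smc2 was at 159, 89.7 and 184 CPM and Smc4 at 154, 59.5 and 174 CPM. Replicate 2 was the lowest of the 48 h libraries for both. Without 0 h replicate 1, the library with the highest Smc2 value at 0 h, Smc2 passed as higher at 48 h (log2 fold change 1.14, SE 0.313, adjusted p = 0.0257, edgeR's quasi-likelihood test), against 0.54 (SE 0.442, adjusted p = 0.398) with it. The median of the 8 was -0.00869, and 0.0169 over all genes.

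The comparison of 48 h with 24 h covers the second day, both groups having been in co-culture in the same medium. The kleisins went opposite ways: Ncaph rose and Ncaph2 fell. The myoid marker sum (149 to 207 and 267 to 317 CPM) and the fibroblast sum (2140 to 2420 and 2770 to 3040 CPM) were higher over the same interval, and their part in the kleisin values was not tested. The kleisins were 2 of 8 subunits, where 21.3% of 17499 genes passed, 8.61% higher and 12.7% lower, and 38.5% had libraries that did not overlap. Ncaph rose from 87.3 to 88.4 CPM at 24 h to 96.6 to 108 CPM at 48 h, with a log2 fold change of 0.23 (SE 0.065, interval 0.079 to 0.370, adjusted p = 0.0365, edgeR's quasi-likelihood test), or 1.17-fold higher. Its 48 h libraries lay above the 24 h level and below the 0 h level without overlap with either. Ncaph2 fell from 156 to 171 CPM to 121 to 144 CPM, a log2 fold change of -0.33 (SE 0.070, interval -0.488 to -0.172, adjusted p = 0.0111, edgeR's quasi-likelihood test), or 1.26-fold lower.

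Both second-day calls depended on single libraries and on the fit. When libraries were left out in turn, the Ncaph call held without 48 h replicate 2 (0.24, adjusted p = 0.0402 with edgeR) and was lost without any of the other 5 (0.18 to 0.27, adjusted p from 0.0588 to 0.119 with edgeR). It was also lost with no expression filter (0.22, adjusted p = 0.0776, edgeR) and when all 9 libraries entered a single fit (0.23, adjusted p = 0.115, edgeR). The Ncaph2 call was lost without 48 h replicate 1 (log2 fold change -0.30, adjusted p = 0.0707 with edgeR), with the GC content and length offsets (-0.16, adjusted p = 0.0677 with edgeR) and in the single fit of 9 libraries (-0.32, adjusted p = 0.133 with edgeR). The other 6 subunits did not pass, but without 48 h replicate 2, where Smc2 and Smc4 were lowest, Smc2 (0.79, adjusted p = 0.0101), Smc4 (0.76, adjusted p = 0.0205) and Ncapg2 (0.28, adjusted p = 0.0357) passed as higher at 48 h in the same edgeR test. With all 6 libraries their log2 fold changes were 0.53 (interval -0.066 to 1.120), 0.40 (-0.402 to 1.207) and 0.20 (-0.016 to 0.413). Ncapg (0.26), Ncapd2 (0.06) and Ncapd3 (-0.06) completed the 8, and the median was 0.212, beside -0.00453 over all genes.

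**Figure D2:**
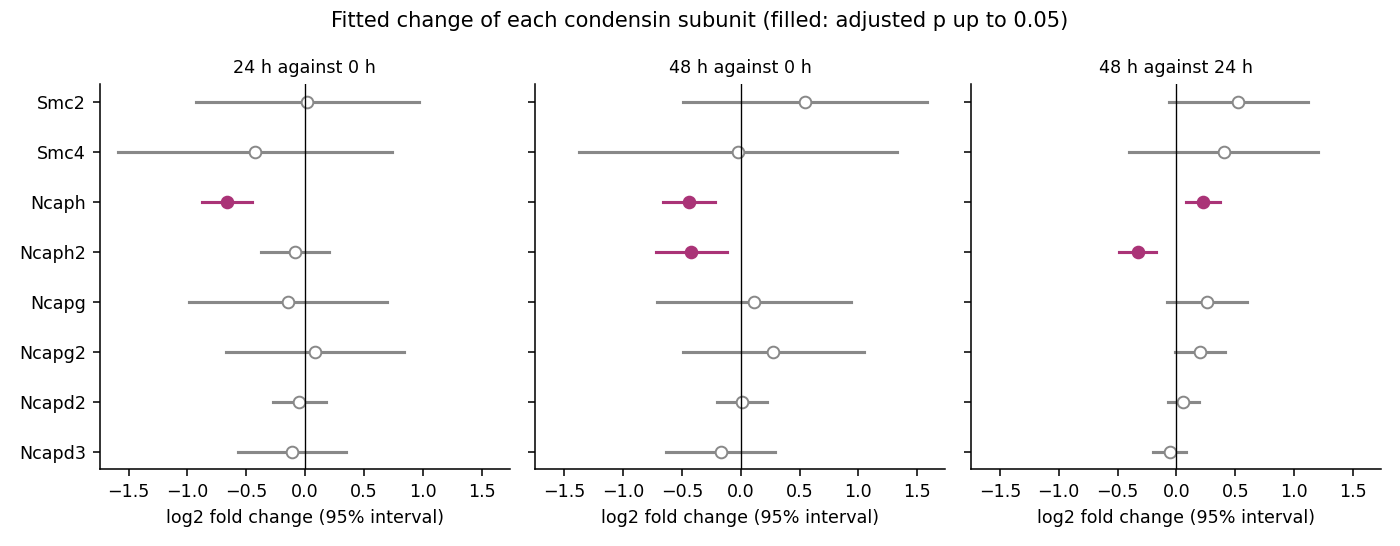
Fitted log2 fold change of each condensin subunit (horizontal axes, points) with its 95% interval (lines) in the 3 comparisons of times, filled where the adjusted p was up to 0.05. Ncaph is filled in all 3 panels, at -0.66, -0.44 and 0.23, Ncaph2 at -0.42 and -0.33 in the 2 panels with 48 h, and the intervals of Smc2 and Smc4 are the widest against 0 h.

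The kleisins are alternatives in otherwise similar complexes, so their ratio was followed within each library, where scaling between libraries has no effect. The FPKM ratio of Ncaph to Ncaph2 was 0.872, 0.784 and 0.688 at 0 h, 0.516, 0.546 and 0.498 at 24 h, and 0.743, 0.690 and 0.869 at 48 h. The 24 h libraries lay below all others, and the 0 h and 48 h libraries overlapped (means 0.781 ± 0.092, 0.520 ± 0.0245 and 0.767 ± 0.0922, n = 3 each, not tested). The 48 h ratio returned to the 0 h range, with the means of Ncaph and Ncaph2 both below their 0 h means. The Ncaph2 call against 0 h was lost with GC and length offsets. These ratios are not corrected for GC content, which was 48.3% for Ncaph and 55.7% for Ncaph2. The ratio of Ncapg to Ncapg2 overlapped between all 3 times, with means of 1.30, 1.10 and 1.16. Ncapd2 to Ncapd3 ran from 1.67 to 3.15 at 0 h, from 2.27 to 2.34 at 24 h and from 2.41 to 2.63 at 48 h, so both later times lay inside the 0 h range and apart from each other. Smc2 to Smc4 overlapped between all 3 times (means 0.798, 1.00 and 1.14). The mean FPKM of the condensin I-specific subunits over that of the condensin II-specific ones was 1.29 to 1.40 at 0 h, 1.15 to 1.25 at 24 h and 1.41 to 1.5 at 48 h, and this ratio was not tested. The 24 h libraries were lowest, and with the length of the longest transcript the 0 h and 48 h libraries overlapped.

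**Figure D3:**
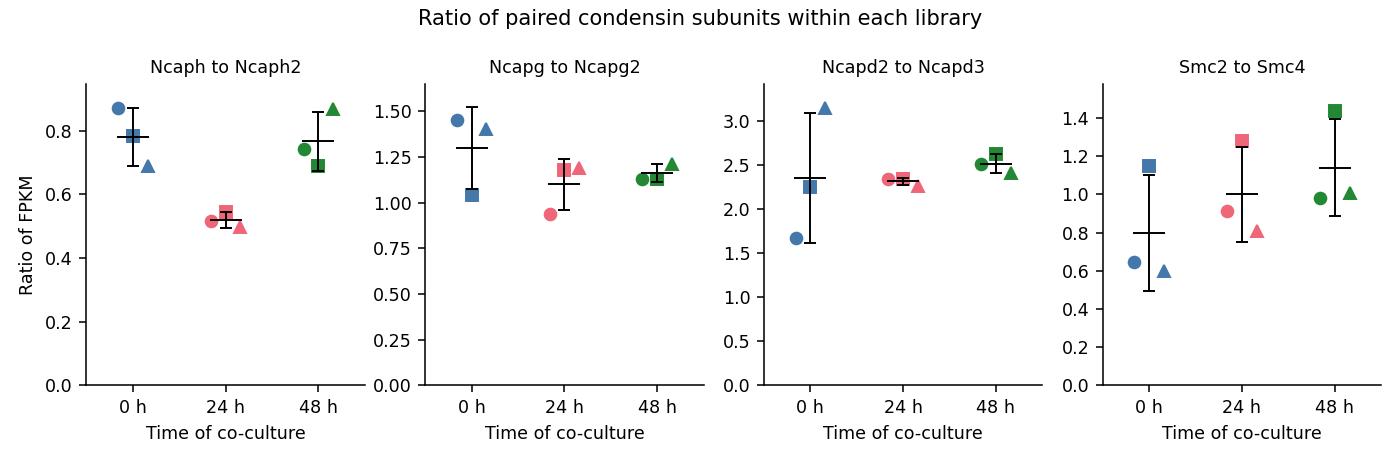
Ratio of FPKM between paired subunits within each library (vertical axes, from 0) at 0, 24 and 48 h (horizontal axes), with circles, squares and triangles for replicates 1, 2 and 3 and bars for mean and SD of 3. Ncaph to Ncaph2 lies at 0.498 to 0.546 at 24 h, below the 0.688 to 0.872 of 0 h and 48 h, whereas in the other 3 ratios the 24 h libraries overlap those of 0 h.

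How far replicates of a time differed varied between the subunits, and at 0 h spread was also wide over all genes low in G and C. Smc2, Smc4, Ncapg and Ncapg2 were 3.01, 2.81, 2.78 and 2.67 times as high in 0 h replicate 1 as in 0 h replicate 3, whereas Ncaph and Ncapd2 were at 0.945 and 0.908 times. The coefficients of variation at 0 h were 58.5%, 74.2%, 51.3% and 44.3% for the former 4 genes, and 3.08% and 5.15% for Ncaph and Ncapd2. Ncapd3 (26.6%) and Ncaph2 (15%) lay between them. Over all genes of at least 10 CPM, the median coefficient at 0 h was 38.4% below 40% G and C. It was 26.2% from 40 to 44% G and C, 13.8% from 44 to 48% and 10.9% from 48 to 52%. From 52 to 56% it was 13.7%, and from 56% upward 18.6%. Smc2, Smc4, Ncapg, Ncapg2, Ncapd3 and Ncaph2 were each above the median of their class of GC content, and Ncaph and Ncapd2 below theirs. The 4 widely varying genes were also those with the least G and C: the longest transcripts of Ncapg, Smc2, Smc4 and Ncapg2 held 34.8%, 39.7%, 40.2% and 44.3% G and C, those of Ncapd3 and Ncaph 46.8% and 48.3%, and those of Ncapd2 and Ncaph2 54.0% and 55.7%. The coefficients themselves did not follow GC content in order, Ncaph2 varying more than Ncapd2 and Ncaph, and Ncapg less than Smc2 and Smc4.

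The signed ratio of replicates fell with GC content over all genes. Among genes of at least 10 CPM, the median log2 ratio of 0 h replicate 1 to replicate 3 went from 1.09 below 40% G and C to 0.722, 0.188, -0.125, -0.327 and -0.501 in successive classes of 40 to 44%, 44 to 48%, 48 to 52%, 52 to 56% and above. Smc2 (1.59), Smc4 (1.49), Ncapg (1.47), Ncapg2 (1.42) and Ncapd3 (0.77) were each above the median of their class and Ncaph (-0.08) was close to it, while Ncapd2 (-0.14) was above and Ncaph2 (-0.42) below theirs. At 48 h the slope between replicates 3 and 2 was shallower, from 0.246 to -0.198. Smc4 (1.55) and Smc2 (1.04) exceeded it most. Once GC content and transcript length were corrected in the edgeR fit, Ncaph remained lower at 24 h in the test, and the log2 fold changes of Ncapg became 0.04, -0.04 and -0.04 in the 3 comparisons, in place of -0.14, 0.12 and 0.26. What set the difference between replicates was not tested.

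**Figure D4:**
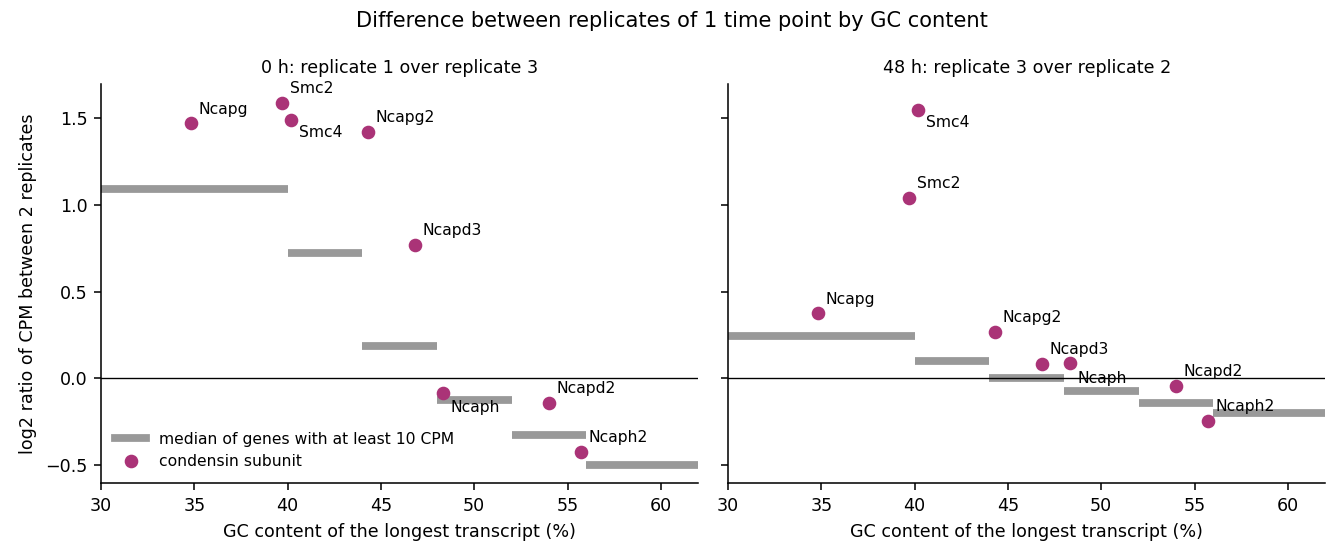
The log2 ratio of CPM between the replicates that differed most (vertical axes) against GC content of the longest transcript in percent (horizontal axes), for the 8 condensin subunits (points) and the median of all genes of at least 10 CPM in classes of GC content (grey bars), at 0 h on the left and 48 h on the right. On the left the AT-rich Smc2, Smc4, Ncapg and Ncapg2 lie at 1.42 to 1.59 and Ncaph2 at -0.42, and on the right Smc4 and Smc2 stand above the bars at 1.55 and 1.04.

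Condensin is loaded, phosphorylated and opposed by other proteins, and 22 genes of such regulators and partners were read from the same fits. At 24 h against 0 h, 1 was higher and 3 were lower (median -0.0147), at 48 h against 0 h 3 and 2 (median 0.159), and at 48 h against 24 h 4 and 1 (median 0.160). Over all genes 11.4% were higher and 14.2% lower at 24 h, 13% and 18.5% at 48 h against 0 h, and 8.61% and 12.7% in the second day, and these shares are the background for each list that follows. Cdk1, the kinase that activates both complexes at mitotic entry, fell with Ncaph. It was at 82.5, 81.4 and 86.1 CPM at 0 h, 44.5, 44.6 and 50.4 at 24 h, and 48.3, 53.5 and 47.9 at 48 h. Both later groups lay well below 0 h, with log2 fold changes of -0.84 (adjusted p = 0.00129, edgeR's quasi-likelihood test) and -0.73 (adjusted p = 0.00161, same test). Its partner Ccnb1 was at 287, 251 and 248 CPM at 0 h, 244, 238 and 253 at 24 h, and 321, 331 and 335 at 48 h. Ccnb1 rose in the second day (0.43, adjusted p = 0.00136, edgeR) and was higher at 48 h than at 0 h (0.33, adjusted p = 0.0497, edgeR).

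Csnk2a1, a catalytic subunit of casein kinase 2 that phosphorylates condensin I in interphase, fell at 24 h (-1.06, adjusted p = 0.000757, edgeR's quasi-likelihood test) from 236 to 284 CPM to 121 to 137 CPM. It rose in the second day (0.42, adjusted p = 0.00447, edgeR) and was still lower at 48 h than at 0 h (-0.64, adjusted p = 0.00466, edgeR). The other catalytic gene, Csnk2a2, was higher at 48 h than at 0 h (0.54, adjusted p = 0.0171, edgeR). Aurkc, the germ cell Aurora kinase, rose at 24 h (1.03, adjusted p = 0.0114, edgeR) and fell in the second day (-0.67, adjusted p = 0.00544, edgeR). Ppp2ca, a catalytic subunit of phosphatase PP2A, fell at 24 h (-0.36, adjusted p = 0.04, edgeR). Ttk (0.39) and Plk1 (0.23), both mitotic kinases, rose in the second day, and Cdca2, which brings phosphatase PP1 to chromosomes, was higher at 48 h than at 0 h (0.34).

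None of the following partners, picked by name, passed the edgeR test in any comparison, nor had an unadjusted p under 0.05. Mcph1, an inhibitor of condensin II, was even across all 9 libraries at 35.6 to 43.1 CPM. The chromatin anchor Akap8 was at 158 to 221 CPM over all libraries. Aurkb (84.1 to 120 CPM), Top2a, the topoisomerase that works beside condensin (335 to 793 CPM), and Kif4, the chromokinesin that acts with condensin I (45.0 to 84.9 CPM), did not pass either. Mki67, the perichromosomal surfactant, ranged from 43.9 to 386 CPM, and like Smc4 it was lowest of its group in replicate 2 at 0 h and 48 h.

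Other SMC complexes share the architecture of condensin. Of 20 cohesin genes, 3 were higher and none lower at 24 h, 1 higher and 1 lower at 48 h against 0 h, and 3 higher and 4 lower at 48 h against 24 h (medians -0.160, 0.173 and 0.241), where 25.5%, 31.6% and 21.3% of all genes passed in either direction. Rec8, the meiotic kleisin of cohesin, went from 20.9, 24.2 and 22.2 CPM to 120, 109 and 105 CPM at 24 h and 62.5, 66.6 and 60.4 CPM at 48 h. It rose at 24 h (2.32, adjusted p = 2.71e-05, edgeR's quasi-likelihood test) and fell in the second day (-0.81, adjusted p = 0.000187, edgeR). Cdca5 (0.46) and Stag3 (0.43), a cohesion protector and a meiotic cohesin subunit, also rose at 24 h. Both fell in the second day (-0.24 and -0.27), and neither passed at 48 h against 0 h. Smc1a, an arm of mitotic cohesin, fell from 24 h to 48 h (-0.47, adjusted p = 0.00189, edgeR) and was lower at 48 h than at 0 h (-0.68, adjusted p = 0.0355, edgeR), while Stag2 (0.95, adjusted p = 0.0357, edgeR) rose in the second day.

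Of 8 SMC5/6 genes tested, 1 was higher at 24 h, 1 higher and 1 lower at 48 h against 0 h, and 1 higher and 1 lower in the second day (medians 0.0381, 0.277 and 0.0742). Slf2, which brings SMC5/6 to chromatin, was higher at 24 h (1.00, adjusted p = 0.0363, edgeR) and at 48 h (0.91, adjusted p = 0.0447, edgeR) than at 0 h. Nsmce1, a non-SMC subunit, was lower at 48 h than at 0 h (-0.72, adjusted p = 0.00347, edgeR) and than at 24 h (-0.52, adjusted p = 0.00281, edgeR). Smc5 rose in the second day (0.61, adjusted p = 0.0323, edgeR).

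Condensin acts in mitosis, and 25 spindle and kinetochore genes were read beside it. At 24 h 1 of them fell, the ubiquitin-conjugating enzyme gene Ube2c (-0.57, adjusted p = 0.0199, edgeR's quasi-likelihood test). At 48 h 4 were higher than at 0 h and none lower, namely Prc1 (0.57), Tpx2 (0.50), Kif20a (0.46) and Kif2c (0.37), and in the second day 7 rose and none fell, the largest being Kif11 (0.54), Ube2c (0.38) and Ckap2 (0.31). The medians were 0.131, 0.439 and 0.173. Of 23 S phase genes, none was higher in any comparison, and 3, 10 and 8 were lower (medians -0.0328, -0.264 and -0.177), where 14.2%, 18.5% and 12.7% of all genes were lower, so the 3 at 24 h are near the share of all genes. Rrm2, a subunit of ribonucleotide reductase, fell at 24 h (-0.84) and was lower at 48 h than at 0 h (-1.04), as was Ccne1, the G1/S cyclin (-0.54 and -1.05). Prim1, a primase subunit, fell at 24 h (-0.64), Ung was lower at 48 h than at 0 h (-0.64), and Rfc2, a clamp loader subunit, fell in the second day (-0.55).

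Genes whose course was most like that of a condensin subunit were named by the smallest root mean square difference of centred log2 CPM over the 9 libraries, for the subunits that passed the test in at least 2 comparisons. Among 6975 candidates the nearest to Ncaph were Dym (0.0551) and Ube2j1 (0.0569). Dym averaged 104, 65.3 and 73.2 CPM at the 3 times, the same drop and part return as Ncaph. Those nearest to Ncaph2 were Usp5 (0.0384), Arf5 (0.0403) and Ciapin1 (0.0425), and Usp5 averaged 216, 201 and 154 CPM. The spread of the subunits themselves on this scale was 0.278 for Ncaph and 0.218 for Ncaph2, so the match is close in level course and says nothing else.

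The genes lie on 8 different chromosomes (GRCm38). Smc2 (ENSMUSG00000028312) spans chr4:52439243-52488260, Smc4 (ENSMUSG00000034349) chr3:69004738-69034623, Ncaph (ENSMUSG00000034906) chr2:127103809-127133954, Ncapg (ENSMUSG00000015880) chr5:45669919-45700546 and Ncapd2 (ENSMUSG00000038252) chr6:125168007-125191701. For condensin II, Ncaph2 (ENSMUSG00000008690) spans chr15:89355719-89372826, Ncapg2 (ENSMUSG00000042029) chr12:116405402-116463731 and Ncapd3 (ENSMUSG00000035024) chr9:27030175-27095315. Sequence alike to other genes was sought on both strands in windows of 75 bases at 97% identity. Of the windows, 5.7% for Ncapg matched Lcorl, 43.1% for Ncaph2 matched Sco2, Tymp, Gm7535 or Gm8363, and the other 6 subunits matched none. Lcorl, Sco2 and Tymp are the genes that share exonic bases on the opposite strand, and their matches were not separated from that overlap. The Ncaph2 values above are therefore less certain than those of the other subunits.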

How the data were processed

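Poly-A RNA of 9 libraries, 3 per time, was sequenced. Per the submitters' processing notes the authors used fastp, HISAT2 and featureCounts on GRCm38, with versions, annotation release and strand setting not given in the sources used here. The deposited values are raw read counts per Ensembl gene, 16825251 to 22201892 per library. No duplicate libraries were found. Intervals that rest on 3 libraries per group are wide for genes that vary.

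Of 46078 identifiers, 45229 were matched to GENCODE M21. Comparisons of 6 libraries each used edgeR 4.0.16 in R 4.3.3 (TMM, filterByExpr, glmQLFit and glmQLFTest, two-sided, Benjamini-Hochberg threshold 0.05 over all genes tested), checked on simulated counts. CPM were TMM-scaled over all 9 libraries, and FPKM used the union of exons. The standard error is the fold change over the root of F. The study's methods used DESeq2 with the same threshold. Alternatives were DESeq2 1.42.0, its size factors in edgeR, library totals alone, no filter, a minimum of 10 counts per library, a single fit of all 9 libraries, a replicate block, GC and length offsets (splines of 5 and 4 degrees of freedom) with and without the block, and leaving out each library. Sequence windows were searched with BLAST 2.17.0.

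The members and lists were chosen with earlier results of these data known. Named genes were all subunits, 10 regulators given by name, the 3 called genes per list and comparison with the largest change, and the 3 genes nearest in course to each subunit called in at least 2 comparisons. Of the genes these rules selected, 2 are not reported here.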

Additional observations from a re-analysis of the deposited data

How the results depend on the processing

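Over 360 values of the 8 subunits under the alternatives, 293 kept their direction and side of the threshold, 28 lost the threshold, 7 gained it and 32 turned sign. Ncaph at 24 h against 0 h passed in all 9 other settings (log2 fold change -0.67 to -0.55) and without each library (-0.68 to -0.62, adjusted p from 0.00176 to 0.0193 with edgeR), and the count of subunits called there was 1 throughout. At 48 h against 0 h the count of 2 became 1 with DESeq2, with its size factors, with library totals alone, with no filter and with GC and length offsets, 1 with the block and offsets together, and 0 to 3 without single libraries. At 48 h against 24 h it became 4 with no filter (Smc2, Smc4 and Ncapg passing, Ncaph not), 0 with all 9 libraries in 1 fit, 1 with the offsets, and 0 to 5 without single libraries. Genes called among all tested were 2607 to 6023, 3471 to 7116 and 1857 to 4356 without single libraries in the 3 comparisons in the order given, and 1043 in the second-day comparison from a single fit of all 9 libraries, 27.3% of them higher against 40.4%. Library totals alone raised the share of higher calls from 44.5% to 57.1% at 24 h and from 41.2% to 52.8% at 48 h against 0 h.

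The values that turned sign belonged to differences that had not passed. With library totals alone they were, at 24 h, Ncapd2 0.065, Ncapd3 0.004 and Ncaph2 0.027, and at 48 h against 0 h Smc4 0.084. With the GC and length offsets Ncapg became 0.037, -0.040 and -0.043 in the 3 comparisons, and Ncaph2 0.00 at 24 h. Without single libraries the 24 h values ran from -0.248 to 0.621 for Smc2, -0.741 to 0.401 for Smc4, -0.074 to 0.010 for Ncapd2, -0.260 to 0.123 for Ncapd3, -0.405 to 0.354 for Ncapg, -0.205 to 0.416 for Ncapg2 and -0.170 to 0.051 for Ncaph2. At 48 h against 0 h they ran from -0.346 to 0.795 for Smc4, -0.011 to 0.069 for Ncapd2, -0.319 to 0.061 for Ncapd3, -0.148 to 0.610 for Ncapg and -0.008 to 0.610 for Ncapg2. The cause was not tested.

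The replicate numbers gave no sign of pairing the samples: correlations of same-numbered deviations ran from -0.281 to 0.194, and of different-numbered ones from -0.39 to 0.38. With 3 libraries per group, these values cannot show that the samples were unpaired. With the replicate block the count of subunits called was 1 at 24 h, 0 at 48 h against 0 h and 1 at 48 h against 24 h, with 3007, 4013 and 2497 genes called, and Smc4 was 0.080 at 48 h against 0 h. The calls lost under the block were Ncaph (-0.44, adjusted p = 0.0577) and Ncaph2 (-0.41, adjusted p = 0.111) at 48 h against 0 h and Ncaph (0.22, adjusted p = 0.0803) in the second day, all with edgeR. With the block and the offsets the second-day count was 0, Ncapg was 0.040, -0.055 and -0.057, and Ncaph2 0.00 at 24 h.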
